A study of Homo sapiens with 20 samples.

Results

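POU2AF1 was mapped in MM1.S and NCI-H929, both multiple myeloma lines, and 916 of the 36603 POU2AF1 regions called in DMSO-treated MM1.S cells overlapped a POU2AF1 region of DMSO-treated NCI-H929 cells but no IRF4 region of either line. These IRF4-free sites were selected from the DMSO region lists on chromosomes 1 to 22 and X, with 1 shared base counting as an overlap. They met 917 NCI-H929 POU2AF1 regions, since 3 sites spanned more than 1 NCI-H929 region and 2 NCI-H929 regions spanned more than 1 site. They are set beside the 10708 MM1.S POU2AF1 regions that overlapped POU2AF1 of NCI-H929 and IRF4 of both lines, called IRF4-shared sites here. Because the DMSO lists selected the sites, every DMSO value below is a description, and the AU-15330 lists and the small cell lung cancer (SCLC) lists are the measurements that the selection did not use.

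The study immunoprecipitated chromatin from cells given AU-15330 at 1 µM or the solvent DMSO, with treatments of 4 to 6 h by the sample labels, and sequenced it (ChIP-seq). The 8 myeloma lists came from POU2AF1 (Thermofisher antibody) and IRF4 (CST antibody), each with AU-15330 and with DMSO, in MM1.S and in NCI-H929. The other 12 lists came from the POU2F3-expressing SCLC lines NCI-H526 and NCI-H1048, likewise with AU-15330 and with DMSO. They comprised POU2F3 (CST antibody) in both lines, HA-tagged POU2F3 (CST antibody to HA) in both lines, HA-tagged POU2AF2 in NCI-H526 and an HA-tagged protein that the labels of NCI-H1048 do not name. The tagged proteins were dTAG constructs placed in cells whose own copy of the gene had been knocked out, so each such pair reports on 1 engineered line. Each condition had 1 library, so no difference below has a replicate check, and the 95% exact binomial intervals given with shares cover counting error only.

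AU-15330 was associated with shorter lists for 9 of the 10 protein and line pairs. The exception was POU2F3 by antibody in NCI-H1048, with 51406 regions with AU-15330 and 38034 with DMSO. The POU2AF1 lists held 20677 regions with AU-15330 and 36603 with DMSO in MM1.S, and 16917 with AU-15330 and 29817 with DMSO in NCI-H929. The shortest myeloma list was IRF4 in NCI-H929 with AU-15330, at 1982 regions against 65174 with DMSO. Total read numbers are not part of the lists, but the background read pileup recovered from them was 0.866 times as high with AU-15330 as with DMSO for POU2AF1 in MM1.S and 0.874 times as high in NCI-H929. Promoters of 9 of 10 plasma cell markers carried a POU2AF1 region in each myeloma line (all but JCHAIN), against 2 of 5 B cell markers and 0 of 5 T cell markers in each line. Of 5 tuft cell markers, 2 carried one in MM1.S and 3 in NCI-H929, and of 5 myeloid, 5 neuroendocrine and 5 hepatocyte markers 1 each did in MM1.S and 0 in NCI-H929.

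POU2AF1, also known as OCA-B or BOB.1, is a B cell coactivator that docks on the POU domains of POU2F1 (OCT-1) and POU2F2 (OCT-2) at the octamer element, whose core is the 7 letters TTTGCAT. IRF4 is the interferon regulatory factor that plasma cells and myeloma cells depend on, and it binds its own GAAA-type elements, often beside ETS family partners. CTCF is the zinc finger protein of insulators and chromatin loop anchors. AU-15330 degrades SMARCA2 and SMARCA4, the ATPases of the mSWI/SNF remodelling complexes that open nucleosomal DNA at enhancers and promoters. POU2F3, with its coactivators POU2AF2 and POU2AF3, is the tuft cell relative of the same system.

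The sequences below show the 2 recurrent elements under the summits of IRF4-free sites, read from the hg38 reference and printed 5′ to 3′. Capitals in the first 5 mark the octamer core, or the full octamer ATTTGCAT where the core nearest the summit was part of one. The window at SLC39A13 also holds a full octamer farther from the summit, which is not shown. The first 5 are octamer sites that the results name again, namely the promoters of POU2F1, HDAC9, MAF, H2BC3 and SLC39A13, at chr1:167328862-167328928 (+ strand), chr7:18495679-18495707 (− strand), chr16:79600302-79600330 (+ strand), chr6:26043796-26043862 (− strand) and chr11:47407136-47407164 (+ strand).
POU2F1: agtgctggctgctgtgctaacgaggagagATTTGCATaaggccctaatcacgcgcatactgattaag
HDAC9: gtgataatccATTTGCATatgaatcaaca
MAF: ccgctgcgcgcTTTGCATaaggaagggct
H2BC3: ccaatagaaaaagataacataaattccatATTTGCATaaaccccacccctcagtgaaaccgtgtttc
SLC39A13: gatggagcgctTTTGCATacagggagggg
Capitals in the next 3 mark the match to the CTCF pattern in the 3 strongest sites that held it exactly near their summit, chosen after the pattern counts were seen, at chrX:10119681-10119752 (− strand, nearest CLCN4), chr16:32897964-32898035 (+ strand, nearest TP53TG3) and chr12:59150203-59150274 (− strand, nearest LRIG3).
CLCN4: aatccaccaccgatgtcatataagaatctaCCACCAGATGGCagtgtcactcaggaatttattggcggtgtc
TP53TG3: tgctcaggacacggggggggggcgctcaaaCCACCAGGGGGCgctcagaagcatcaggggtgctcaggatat
LRIG3: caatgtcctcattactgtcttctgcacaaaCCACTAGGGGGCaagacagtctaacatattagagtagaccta
A match is a description of the letters and not a measured contact of the factor.

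The IRF4-free sites were ordinary POU2AF1 regions in strength and narrower than IRF4-shared sites. Fold enrichment, which is the summit pileup over the local background as called by MACS2, had a median of 4.62 and ranged from 2.21 to 29.6 over the 916 sites in MM1.S, against a median of 5.76 at IRF4-shared sites and 4.62 in the whole list. Their median width was 288 bases, against 568 at IRF4-shared sites and 329 in the whole list. A rule against any base shared with IRF4 favours narrow regions, so the selection bears on width. In NCI-H929 the median fold enrichment was 4.41, against 5.29 at IRF4-shared sites. Most of them lay away from coding promoters. A promoter, defined as a region within 1 kb of a protein-coding transcription start site (TSS) of GENCODE 44, held 276 sites or 30.1% (27.2 to 33.2), against 62.1% of IRF4-shared sites and 34.2% of the whole list. It was 16.6% when no IRF4 region was allowed within 1 kb. Introns held 268 sites, exons 30 and intergenic DNA 342. Of the sites outside coding promoters, 108 lay within 1 kb of a non-coding TSS.

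Octamer cores and CTCF elements were more frequent under the summits of the IRF4-free sites than in their flanks and than at IRF4-shared sites. The octamer core TTTGCAT, counted on both strands within 100 bases of the summit, was present at 150 sites or 16.4% (14.04 to 18.9), against 5.10% of IRF4-shared sites and 7.29% of all MM1.S POU2AF1 regions. Windows of the same length 2 kb to either side of the sites held it in 4.15%. The full ATTTGCAT, which contains the core, was present at 118 sites or 12.9%, against 3.36% of IRF4-shared sites, 4.34% of all regions and 1.80% of the flanks. The core sat a median of 29 bases from the summit, and in 112 of the 150 sites it lay within 50 bases. Away from promoters its share was 19.2% (16.2 to 22.5), against 10.2% (9.27 to 11.2) at IRF4-shared sites, and at promoters 9.78% (6.55 to 13.9), against 2.00% (1.68 to 2.37). A further 4469 MM1.S POU2AF1 regions overlapped POU2AF1 of NCI-H929 and IRF4 of 1 line only. Away from promoters these held the core in 15.2% (13.6 to 16.9), nearer to the IRF4-free than to the IRF4-shared sites. They held the full octamer there in 11.4%, against 15.3% of IRF4-free sites.

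The CTCF pattern was matched exactly at 101 sites or 11.03% (9.07 to 13.2), against 2.29% of IRF4-shared sites, 3.97% of all regions and 0.164% of the flanks. With 1 mismatch allowed, a setting added after the exact counts were seen, 282 sites or 30.8% held it, against 9.27% of IRF4-shared sites, 12.7% of all regions and 2.13% of the flanks. That excess lay outside promoters, where 262 of 640 sites or 40.9% (37.1 to 44.9) matched, against 13.0% (12.0 to 14.1) at IRF4-shared sites. Regions with IRF4 in 1 line only lay between, with 30.1% (28.0 to 32.2) matching outside promoters. At promoters 7.25% (4.48 to 10.97) of the sites matched, against 6.98% (6.38 to 7.61), which is within counting error. The site windows and the IRF4-shared windows away from promoters had the same median GC content, 49.3% each. With 27 sites holding both patterns, the 916 sites fell into 150 with an octamer core, 255 with a CTCF pattern and no octamer, and 511 with neither.

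Several patterns of other factors were less frequent at IRF4-free than at IRF4-shared sites. The IRF pattern was found at 5.78% of sites away from promoters against 17.4% at IRF4-shared sites, a difference that the selection on IRF4 itself builds in. The RUNX pattern AACCACA was at 7.03% against 18.1%, and the AP-1 pattern TGANTCA at 6.41% against 11.6%. At promoters, the ETS pattern CCGGAAG was at 6.52% of sites against 14.6% and the Sp/KLF pattern GGGCGG at 48.6% against 61.8%. Both exceeded the flanks of the IRF4-free promoter sites, which held them in 0.362% and 9.42%. The NFY box CCAAT was at 20.9% of all IRF4-free sites (18.3 to 23.6), against 18.4% of IRF4-shared sites (17.7 to 19.2) and 24.6% of the flanks. In the plot of pattern shares, the octamer and CTCF points of IRF4-free sites lie farthest from their flanks outside promoters, and the Sp/KLF point at promoters.

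**Figure D1:**
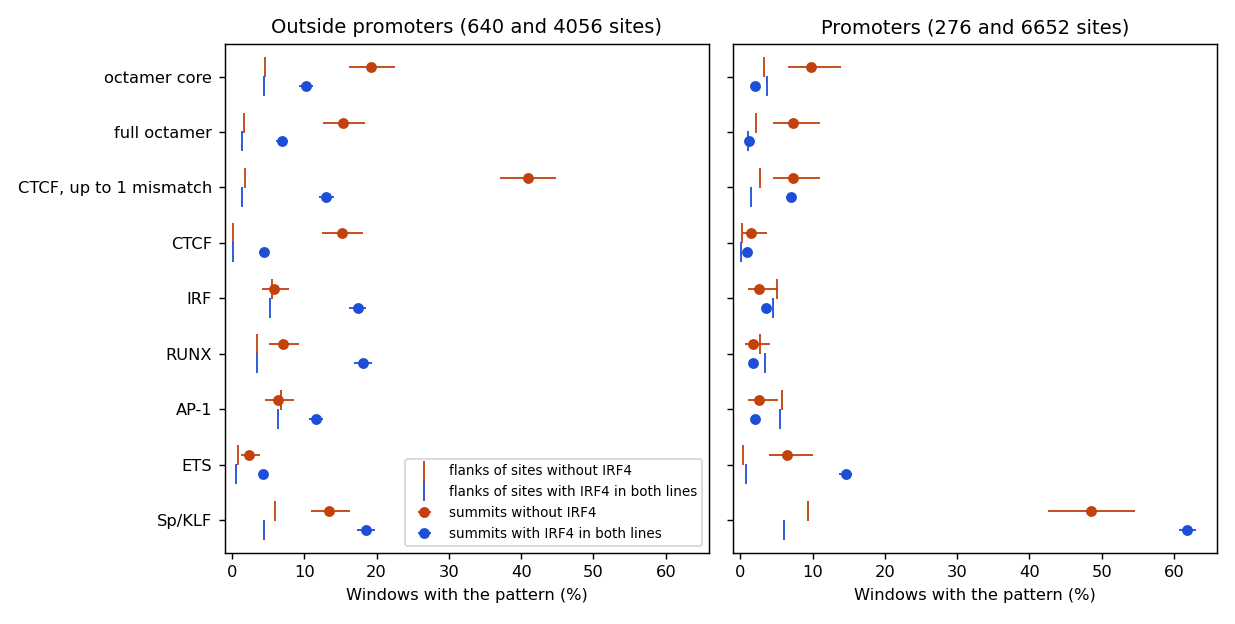
Share of windows (percent, horizontal axis) with each sequence pattern (vertical axis) at the summits (points, with 95% exact binomial intervals) and in the flanks (ticks) of IRF4-free and IRF4-shared sites, outside promoters (left) and at promoters (right). Outside promoters the octamer core was at 19.2% of IRF4-free and 10.2% of IRF4-shared sites, and the CTCF pattern with up to 1 mismatch at 40.9% and 13.0%.

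With AU-15330, about 1 in every 3 IRF4-free sites was still called. In MM1.S, 300 of 916 sites or 32.8% (29.7 to 35.9) overlapped a POU2AF1 region with AU-15330, against 33.7% of the whole DMSO list and 68.2% (67.3 to 69.1) of IRF4-shared sites. The share over all sites was thus near that of the list at large, of which 66.3% was no longer called. Taken apart by position, the shares differed from the list in opposite directions, as given below. In NCI-H929, 295 of 917 regions or 32.2% (29.2 to 35.3) were still called, against 38.4% of the whole NCI-H929 list and 66.2% (65.3 to 67.1) of IRF4-shared sites, and 61.6% of the whole list was no longer called. Regions with IRF4 in 1 line only lay between IRF4-free and IRF4-shared sites, at 52.9% in MM1.S and 58.2% in NCI-H929. At unchanged occupancy, the lower background of the AU-15330 libraries would still have left 92.5% of the sites callable in MM1.S and 89.4% in NCI-H929, by a calculation that takes the DMSO summit heights at face value and so runs high for regions selected on them.

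A site kept in 1 line was not always kept in the other. In 156 sites (17.03%) POU2AF1 was called with AU-15330 in both lines, in 144 (15.7%) in MM1.S alone, in 116 (12.7%) in NCI-H929 alone and in 500 (54.6%) in neither. Of all 16093 MM1.S regions shared with NCI-H929, 51.0% were still called in both lines, and of IRF4-shared sites 58.3%. Promoter sites were kept more often than the others: 77 of 276 remained in both lines and 101 in neither, whereas 174 of 268 intronic sites (64.9%) and 209 of 342 intergenic sites (61.1%) remained in neither. Among promoters without an octamer core or CTCF pattern, 37.0% of IRF4-free sites remained in neither line. This share was 21.2% in the whole MM1.S list and 5.13% at IRF4-shared sites. Away from promoters these 3 shares were 69.0%, 82.9% and 56.0%. The whole list includes regions that NCI-H929 lacked with DMSO.

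**Figure D2:**
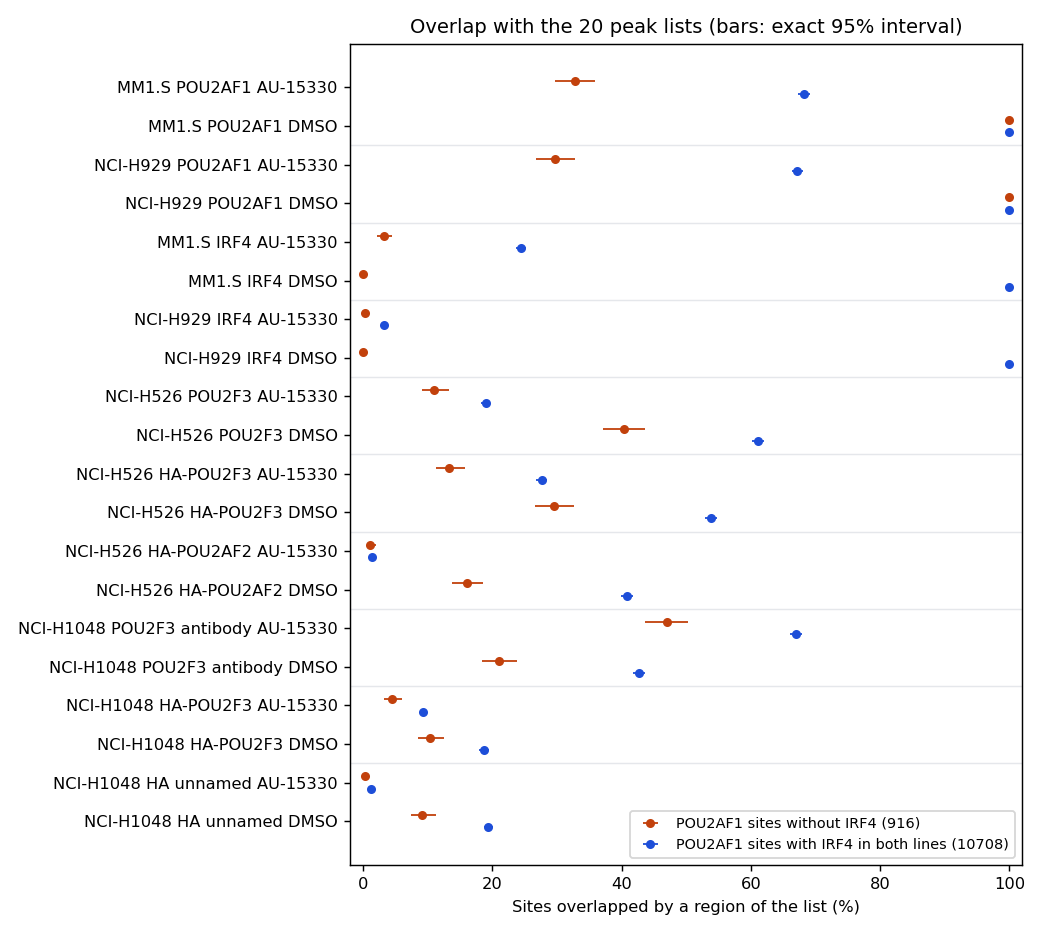
Share (percent, horizontal axis) of IRF4-free sites and IRF4-shared sites overlapped by each of the 20 lists (vertical axis), with 95% exact binomial intervals; the POU2AF1 and IRF4 DMSO rows are set by the selection. POU2AF1 with AU-15330 covered 32.8% of IRF4-free sites in MM1.S, and the 2 IRF4 lists with AU-15330 covered 3.17% and 0.328% of them.

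The gap to the IRF4-shared sites differed with position and strength. At promoters, 126 of 276 sites or 45.7% (39.7 to 51.7) were kept in MM1.S and 147 of 280 or 52.5% (46.5 to 58.5) in NCI-H929, against 86.5% of IRF4-shared promoter sites in MM1.S and 85.6% in NCI-H929. Promoter regions of the whole lists were kept in 68.0% of cases in MM1.S and 74.1% in NCI-H929. Away from promoters, 27.2% (23.8 to 30.8) were kept in MM1.S and 23.2% (20.01 to 26.7) in NCI-H929, against 38.2% of IRF4-shared ones in MM1.S and 33.7% in NCI-H929. Regions of the whole lists away from promoters were kept in 15.9% of cases in MM1.S and 16.3% in NCI-H929. IRF4-free sites were thus kept less often than the whole lists at promoters and more often away from them. The selection required POU2AF1 in both lines, which the whole lists did not. Away from promoters, MM1.S regions without IRF4 and without POU2AF1 in NCI-H929 were kept in 4.75%. Regions with IRF4 in 1 line only were kept there in 33.5% in MM1.S and 36.5% in NCI-H929. Among regions shared by both lines, IRF4-free sites were therefore kept least often away from promoters. Of the sites away from promoters in MM1.S, 22.8%, 13.0%, 21.6%, 26.0% and 52.5% were kept over 5 equal classes of fold enrichment from weakest to strongest, against 20.6%, 25.5%, 25.3%, 34.3% and 53.8% of IRF4-shared ones, so the sets were close in the weakest and the strongest class. In the strongest class away from promoters in NCI-H929, 52.4% were kept, against 50.1%. In the strongest class at promoters, 77.8% of the sites were kept in MM1.S, against 94.2%. Over all sites, 25.2%, 24.5%, 22.7%, 35.1% and 59.5% were kept in MM1.S over the 5 classes, against 40.6%, 49.7%, 57.4%, 66.7% and 80.7% of IRF4-shared sites.

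**Figure D3:**
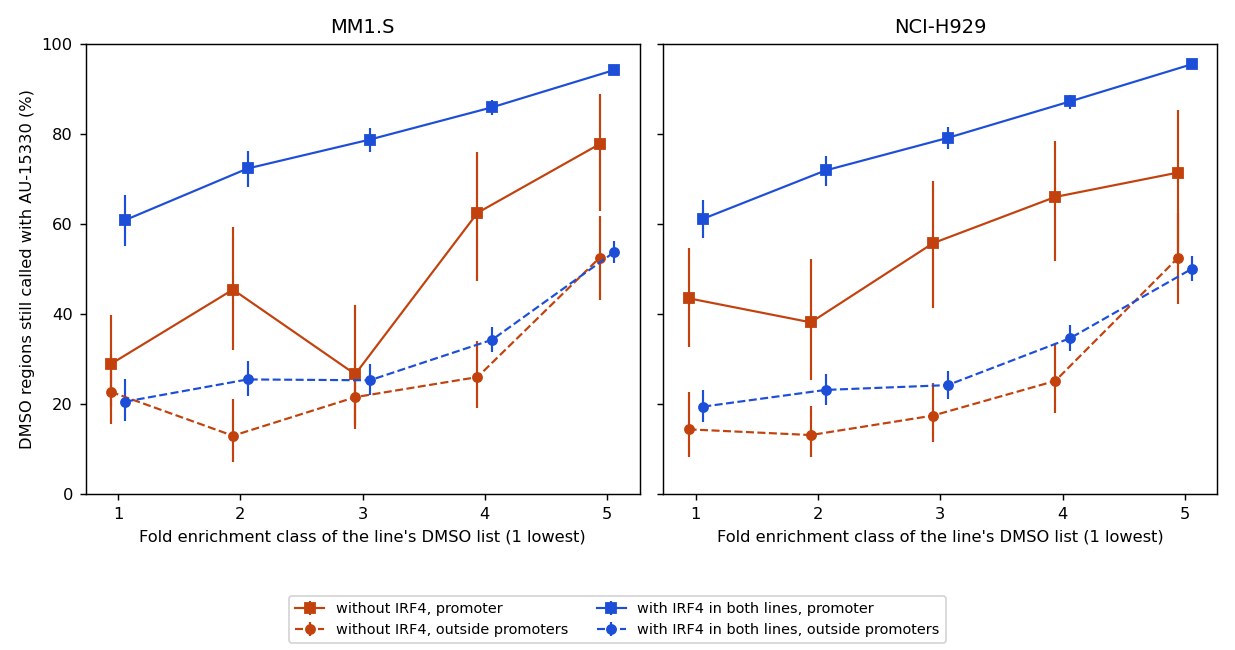
Share of POU2AF1 regions still called with AU-15330 (percent, vertical axis) in 5 classes of DMSO fold enrichment (horizontal axis, weakest to strongest), for MM1.S (left) and NCI-H929 (right), IRF4-free and IRF4-shared sites, at promoters (solid) and outside them (dashed), with 95% exact binomial intervals. In the strongest class away from promoters the 2 sets met at 52.5% and 53.8% in MM1.S, while at promoters they stood at 77.8% and 94.2%.

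Among sites away from promoters, the element under the summit went with a different contrast to IRF4-shared sites. Octamer sites were called in neither line with AU-15330 in 80 of 123 cases or 65.0% (55.9 to 73.4), against 250 of 413 or 60.5% (55.6 to 65.3) of IRF4-shared octamer sites, a difference within counting error. CTCF sites were called in neither line in 125 of 236 cases or 53.0% (46.4 to 59.5), against 116 of 510 or 22.7% (19.2 to 26.6) of IRF4-shared CTCF sites. Sites with neither pattern were called in neither line in 69.0% of 281 cases (63.3 to 74.4), against 56.0% of 3133 (54.2 to 57.7). Over the whole MM1.S list away from promoters, 61.7% of CTCF regions and 82.9% of regions with neither pattern were called in neither line. For regions with an octamer alone the share was 83.2%, against 71.1% of such IRF4-free sites. The whole list includes regions that NCI-H929 lacked with DMSO. Median fold enrichment in MM1.S was lower than at IRF4-shared sites in both pattern classes, 4.93 against 6.23 for sites with an octamer alone and 4.98 against 6.22 for CTCF sites. In the strongest class of fold enrichment away from promoters, CTCF sites were kept in MM1.S in 39 of 60 cases or 65.0% (51.6 to 76.9), against 227 of 273 or 83.2% (78.2 to 87.4), and in the next class in 20 of 60 or 33.3% (21.7 to 46.7), against 70 of 120 or 58.3% (49.0 to 67.3).

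The SCLC lists, which played no part in the selection, covered the octamer sites more often than the rest. At least 1 of the 12 SCLC lists overlapped 590 sites (64.4%), 104 (11.4%) were in 6 or more of them, and 326 (35.6%) were in none. Over the whole MM1.S POU2AF1 list these shares were 48.4%, 12.2% and 51.6%, and over IRF4-shared sites 74.5%, 29.1% and 25.5%. Away from promoters, POU2F3 of DMSO-treated NCI-H526 cells covered 88 of 123 octamer sites or 71.5% (62.7 to 79.3), against 68 of 236 CTCF sites or 28.8% (23.1 to 35.0) and 75 of 281 sites with neither pattern or 26.7%. HA-POU2AF2 of the same line with DMSO covered 52 octamer sites or 42.3% (33.4 to 51.5), against 2 CTCF sites or 0.847% (0.103 to 3.03) and 22 sites with neither pattern or 7.83%. HA-POU2F3 with DMSO covered 52.8%, 19.9% and 12.8% of these classes in NCI-H526, and 34.1%, 4.24% and 3.20% in NCI-H1048. Each of these lists thus covered a larger share of the octamer sites than of the other classes, and lists from 1 line share its cells and are not independent of each other. IRF4-shared octamer sites away from promoters were covered less often, by POU2F3 of NCI-H526 in 50.1% and by HA-POU2AF2 in 30.02%. Over the whole MM1.S list away from promoters, POU2F3 of NCI-H526 covered 38.1% of regions with an octamer alone. It covered 28.6% of CTCF regions and 12.3% of regions with neither pattern. For HA-POU2AF2 these shares were 21.2%, 3.83% and 4.98%. Octamer regions were thus covered most often there too. Of IRF4-free sites with an octamer alone, POU2F3 covered 67.0% and HA-POU2AF2 40.2%.

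**Figure D4:**
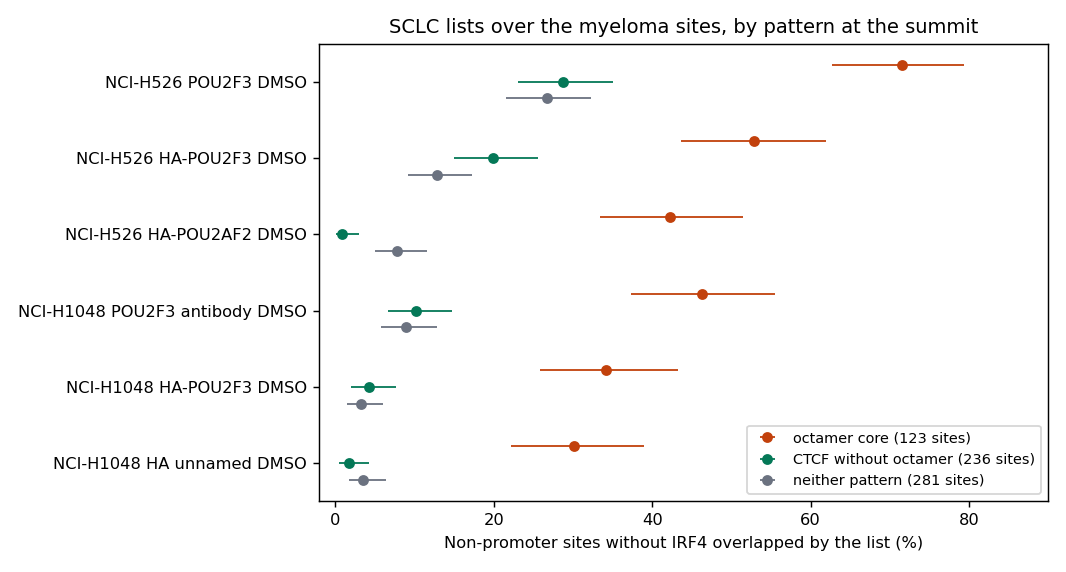
Share of IRF4-free sites away from promoters (percent, horizontal axis) overlapped by each of the 6 SCLC DMSO lists (vertical axis), for octamer, CTCF and neither-pattern sites, with 95% exact binomial intervals. HA-POU2AF2 with DMSO covered 42.3% of octamer sites and 0.847% of CTCF sites.

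With AU-15330 most SCLC overlap at these sites was no longer called, apart from 1 pair, as in the whole list. Of the 369 sites under POU2F3 of DMSO-treated NCI-H526 cells, 94 (25.5%) were also under POU2F3 with AU-15330, against 25.1% over the whole MM1.S POU2AF1 list. For HA-POU2AF2 the count was 5 of 147 (3.40%, against 2.73% over the whole list), and for the HA-tagged protein without a named gene 2 of 84 (2.38%, against 4.73%). For HA-POU2F3 it was 99 of 271 in NCI-H526 (36.5%, against 39.1%) and 32 of 95 in NCI-H1048 (33.7%, against 26.3%). These shares were near those of the whole list. POU2F3 by antibody in NCI-H1048 went the other way, with 162 of 192 sites kept (84.4%, against 93.2% over the whole list) and 268 sites covered with AU-15330 only. In that pair, CTCF sites away from promoters were covered in 110 of 236 cases with AU-15330 and in 24 with DMSO, and octamer sites in 61 of 123 with AU-15330 and in 57 with DMSO. The longer AU-15330 list moved with this result, and its part in it was not tested.

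Where POU2AF1 was still called, its level was mostly lower in MM1.S, and in NCI-H929 the sites were split about evenly. The level is the read pileup at the summit divided by the library's background pileup. Fold enrichment divides by the local background instead, and at some named sites it rose where the level fell, so a lower level is particular to this measure. Over the 300 sites still called in MM1.S, the median ratio of AU-15330 to DMSO was 0.847 (quartiles 0.682 and 1.05), and 197 sites or 65.7% (59.99 to 71.0) had a lower level, against 76.2% of all regions still called and 79.9% of IRF4-shared sites. Over the 295 regions still called in NCI-H929, the median ratio was 1.03 (0.823 and 1.24), and 136 or 46.1% (40.3 to 52.0) had a lower level, against 52.8% of all regions still called. Of the 156 sites kept in both lines, 56 were lower in both and 27 higher in both, while 54 were lower in MM1.S only and 19 in NCI-H929 only. Octamer sites had the lowest median ratios, 0.746 over 42 sites in MM1.S and 0.921 over 46 in NCI-H929, beside 0.857 in MM1.S and 1.03 in NCI-H929 for CTCF sites and 0.866 in MM1.S and 1.05 in NCI-H929 for the rest. These medians leave out the lost sites, which had been lower to begin with, at a median DMSO level of 8.02 for lost and 11.1 for kept sites in MM1.S and of 7.27 for lost and 9.84 for kept regions in NCI-H929.

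**Figure D5:**
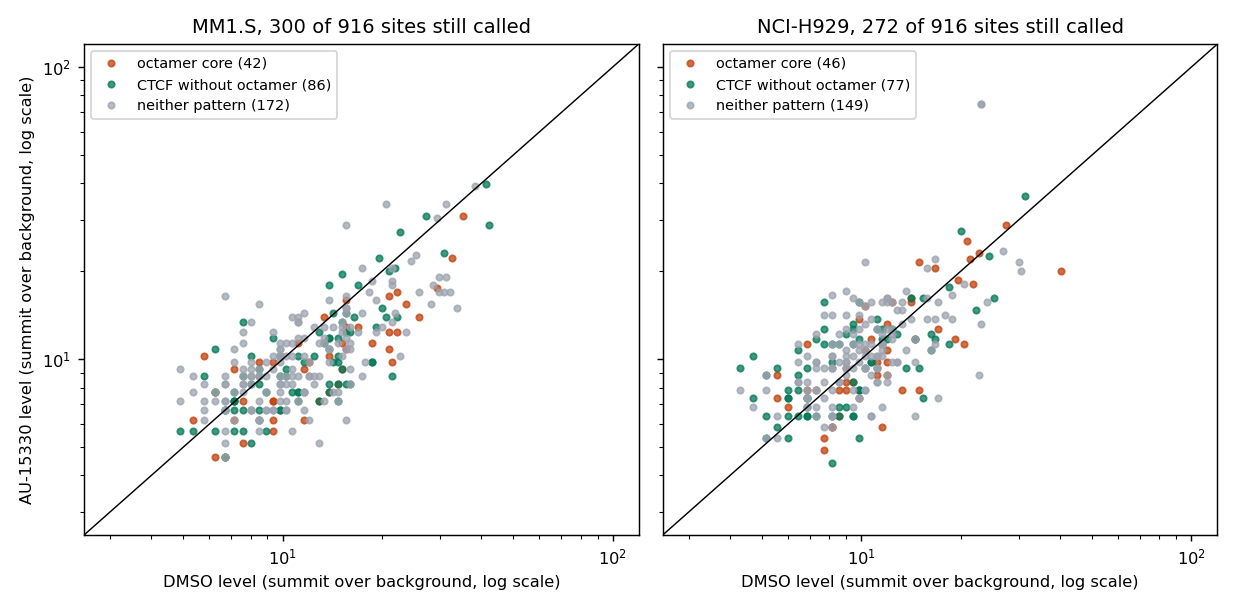
POU2AF1 level at the summit (pileup over background) with AU-15330 (vertical log axis) against DMSO (horizontal log axis) at the IRF4-free sites still called, with MM1.S left and NCI-H929 right, coloured by pattern, with a line of equal levels. In MM1.S 197 of 300 sites lay below the line; the NCI-H929 panel holds the 272 of 916 sites overlapped by a NCI-H929 AU-15330 region.

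Of the 12 sites strongest in both lines, 11 were kept in both. They were ranked by DMSO fold enrichment, and the kept share of the whole lists rose with it. From the weakest to the strongest class it rose from 12.3% to 69.8% in MM1.S and from 16.9% to 73.6% in NCI-H929. The count therefore does not set these sites apart from other strong regions. The strongest lay at chr16:10893-11190, at the end of the short arm, intergenic and 42.6 kb from the TSS of POLR3K, a subunit of RNA polymerase III, and carried a CTCF pattern. Its level was 28.8 with AU-15330 and 42.3 with DMSO in MM1.S, and 36.2 with AU-15330 and 31.2 with DMSO in NCI-H929. It was thus lower in 1 line and higher in the other. The promoter of ESF1, a nucleolar protein of ribosomal RNA processing, held 39.1 with AU-15330 and 38.3 with DMSO in MM1.S, and 15.7 with AU-15330 and 17.1 with DMSO in NCI-H929. Both lines kept it at about its DMSO level. The promoter of FCHO1, an adaptor that bends membranes in endocytosis, had an octamer, with levels of 22.1 with AU-15330 and 32.5 with DMSO in MM1.S, and of 28.9 with AU-15330 and 27.4 with DMSO in NCI-H929. The octamer promoter of HES6, a basic helix-loop-helix factor of the HES family, had 16.5 with AU-15330 and 20.9 with DMSO in MM1.S, and 22.04 with AU-15330 and 21.4 with DMSO in NCI-H929. Both promoters were in 14 of the 20 lists. The site 37.3 kb from CLCN4, a chloride and proton exchanger, lay in an intron of WWC3 and showed opposite shifts, 30.9 with AU-15330 and 27.2 with DMSO in MM1.S and 11.3 with AU-15330 and 18.4 with DMSO in NCI-H929. The other named sites of this group were nearest TP53TG3, CLCA1, CANX, IRF2BP1, LTBP2 and GAP43, kept in both lines, and GOLGA6L4, kept in MM1.S alone.

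Among the strongest sites lost in both lines was an octamer promoter. The promoter of HDAC9, a class IIa histone deacetylase, had DMSO levels of 16.9 in MM1.S and 9.41 in NCI-H929 and no region with AU-15330 in either, although 12 of the 20 lists covered it. Other sites of this group that are reported here lay in introns of TENM4, a teneurin of neuronal wiring, ADGRB1, an adhesion receptor, and P2RY8, a receptor of germinal centre B cells, with DMSO levels between 8.56 and 13.7. None of these 3 had an octamer core or a CTCF pattern.

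Among sites kept in both lines, the largest mean level ratios stood within the immunoglobulin heavy chain locus. Adjacent sites at chr14:105858861-105859323 and chr14:105859553-105860299 lay between IGHM, the mu constant segment, and IGHJ6, the last joining segment, 2.64 kb and 3.34 kb from IGHM. In MM1.S both sites had a level of 34.0 with AU-15330, against DMSO levels of 20.5 and 31.2. In NCI-H929 1 DMSO region spanned both, and the levels were 74.9 with AU-15330 and 23.1 with DMSO. The sites are therefore not separate measurements in NCI-H929. With AU-15330 they are not separate in MM1.S either, where both took the same level and the same fold enrichment, 5.94. Other high ratios were at the promoter of NPM3, a histone chaperone of the nucleoplasmin family, with 15.4 with AU-15330 and 8.47 with DMSO in MM1.S and 22.04 with AU-15330 and 16.7 with DMSO in NCI-H929, and at intronic sites in TCF20 and in ACER3, an alkaline ceramidase.

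The lowest ratios among sites kept in both lines were spread over promoters and distal DNA. The octamer promoter of SLC39A13, a zinc transporter, had 8.24 with AU-15330 and 14.7 with DMSO in MM1.S, and 11.3 with AU-15330 and 20.5 with DMSO in NCI-H929. The site 10.1 kb from CANX, the endoplasmic reticulum chaperone calnexin, had 7.21 with AU-15330 and 13.4 with DMSO in MM1.S, and 8.82 with AU-15330 and 22.7 with DMSO in NCI-H929. Both sites were lower in each line. Promoters of PRICKLE1, a planar polarity protein, and ABCA7, a lipid transporter, and a site near CD300E, a myeloid receptor, completed the 5.

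Of 26 plasma cell genes, 5 (19.2%) had an IRF4-free site at their promoter and 24 (92.3%) any MM1.S POU2AF1 region, beside 1.82% and 60.3% of all protein-coding genes. The 5 were TNFRSF17 (the receptor BCMA), IRF4 itself, CREB3L2, TXNDC5 and HSP90B1, of the secretory pathway. These sites were weak. In MM1.S with DMSO their fold enrichment was 3.35, 2.21, 3.47, 2.45 and 4.29 in that order, against a median of 4.62 over IRF4-free sites. The value at IRF4 was the lowest of all IRF4-free sites. At IRF4 the site was kept in NCI-H929 alone, with a level of 20.1 with AU-15330 and 30.4 with DMSO, and was lost in MM1.S, where the DMSO level was 11.1. Fold enrichment at IRF4 in NCI-H929 was 3.81 with AU-15330 and 3.61 with DMSO, so it did not fall with the level. At TNFRSF17 the site was kept in MM1.S alone, with a level of 10.8 with AU-15330 and 15.6 with DMSO, and was lost in NCI-H929, where the DMSO level was 9.41. No list of the other cell types, namely 22 B cell, 13 T cell, 14 myeloid, 12 hepatocyte, 35 tuft cell and 21 neuroendocrine genes, had a member with such a site, nor did the 27 interferon-stimulated genes. With such sites at 1.82% of all protein-coding genes, lists this short can lack them without being depleted. Their absence therefore sets none of these lists apart from other genes. Any MM1.S POU2AF1 region was at 54.5% of the B cell and 77.8% of the interferon-stimulated genes. For the remaining lists that share ran from 14.3% (myeloid) to 28.6% (tuft cell).

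POU2F1, a recruiter of POU2AF1, was the 1 gene of 6 in the POU2F and POU2AF list with an IRF4-free promoter site. Its level was 9.78 with AU-15330 and 21.4 with DMSO in MM1.S, and in NCI-H929 the site with a DMSO level of 19.3 was lost. Among 28 myeloma factor genes, MAF, a translocation target in myeloma, kept its octamer site in NCI-H929 alone, with 11.8 with AU-15330 and 14.5 with DMSO, and ITGB7, an integrin subunit, lost both of its sites in both lines. Of 23 mSWI/SNF genes, SMARCD2 kept its site in both lines, with 7.72 with AU-15330 and 13.8 with DMSO in MM1.S and 9.31 with AU-15330 and 11.1 with DMSO in NCI-H929, and PHF10 kept its site in NCI-H929 alone. An IRF4-free site was at 10.7% of the myeloma factor and 8.70% of the mSWI/SNF genes, beside 1.82% of all protein-coding genes. Any MM1.S POU2AF1 region was at 92.9% and 95.7% of these lists, beside 60.3%. In the gene windows examined, POU2AF1 had 1 IRF4-free site among 7 MM1.S POU2AF1 regions, intronic and lost in both lines, XBP1 had 1 of 3, IRF4 1 of 4, and MYC (0 of 2) and PRDM1 (0 of 6) had none.

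Histone gene promoters held several such sites. Of 69 replication-dependent histone genes, whose H2B promoters are a classic setting of the octamer, 10 (14.5%) had an IRF4-free site and 57 (82.6%) any MM1.S POU2AF1 region. These shares were 1.82% and 60.3% of all protein-coding genes. Several of these genes are divergent pairs that share 1 site, so 6 distinct sites stood behind the 10 genes. Of these, only the H2BC3 site had an octamer core within 100 bases of its summit. The octamer promoter of H2BC3 was kept in both lines, with levels of 30.9 with AU-15330 and 35.2 with DMSO in MM1.S, and 18.1 with AU-15330 and 21.8 with DMSO in NCI-H929. Fold enrichment at H2BC3 moved the other way, with 5.09 with AU-15330 and 4.49 with DMSO in MM1.S, and 4.73 with AU-15330 and 3.51 with DMSO in NCI-H929. The site shared by H2BC17, H2AC17 and H3C12 was in 15 of the 20 lists, the most of any IRF4-free site, with 30.4 with AU-15330 and 29.4 with DMSO in MM1.S and 13.2 with AU-15330 and 23.1 with DMSO in NCI-H929. Its fold enrichment with DMSO was low, at 3.14 in MM1.S and 2.75 in NCI-H929, against medians of 4.62 and 4.41 over IRF4-free sites. The site shared by H2AC13, H2BC13 and H3C10 was lost in both lines. Of 42 small nuclear RNA and related genes with octamers, RNU6-8 and RMRP (4.76%) had a site. Of 81 cytosolic ribosomal protein genes RPL21, RPL28 and RPS29 (3.70%) did, beside 1.82% of all protein-coding genes. Of 412 immunoglobulin segments IGLC1 and IGLJ1 did, and the IGLJ1 site was also 1 of those at IGLC1. That 0.485% is near the 0.391% of all genes that are not protein-coding.

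Few of these sites met an IRF4 region with AU-15330, which their selection for lacking IRF4 and the short IRF4 lists largely fix in advance. With AU-15330 the IRF4 lists held 6511 regions in MM1.S and 1982 in NCI-H929. IRF4 regions with AU-15330 overlapped 29 sites in MM1.S (3.17%) and 3 in NCI-H929 (0.328%), against 1.05% (MM1.S list) and 0.124% (NCI-H929 list) of all MM1.S POU2AF1 regions without IRF4. Of the whole MM1.S POU2AF1 list, the IRF4 regions with AU-15330 overlapped 10.1% (MM1.S list) and 1.24% (NCI-H929 list). Together the IRF4 lists with AU-15330 met 31 IRF4-free sites, 13 of them promoters and 2 with an octamer, and 8 of the 31 kept POU2AF1 in both lines. The strongest of the 31 lay near GOLGA6L4, BMT2, DISC1, UBAC1 and RTCB. The sites lay a median of 3.46 kb from the nearest IRF4 region, and 312 (34.1%) lay within 1 kb. The sites nearest CD1C and H3Y1 adjoined an IRF4 region without a shared base and the one nearest IGLL5 was 2 bases away, whereas regions nearest SMARCA4, PPP2R2D and PNN were left out for overlaps of 1, 2 and 2 bases.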

How the data were processed

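The 20 deposited lists were used. Per the study's methods, reads were trimmed (Trimmomatic 0.39) and mapped to hg38 (BWA), duplicates were marked (Picard), and the authors called regions with MACS2 at a q-value of 0.05 on each library alone, with no control named, and removed blacklisted regions. The fold enrichment (a ratio over local background), the −log10 p and −log10 q, the integer score and the summit position were deposited by the authors for every region and were read as they stand. The score repeats the −log10 q and was not tested.

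Regions off chromosomes 1 to 22 and X were left out (0.323% to 12.5% of a list). Overlap needed 1 base. Summit pileup was recovered from fold enrichment and p, for 100% of regions in the 8 myeloma lists. Genes came from GENCODE 44 on the same build. Sequence windows reached 100 bases to either side of the summit. Intervals were exact binomial, from scipy 1.17.1. Scripts were checked on simulated data.

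The sites, gene lists and patterns were chosen with earlier results of these data known. Named sites were the 12 strongest in both lines, the 5 strongest lost in both, the 5 highest and 5 lowest level ratios among those kept in both, list genes with a promoter site, the 5 in most other lists, the 5 strongest under IRF4 with AU-15330, and those in windows of 5 genes. Of these, 1 named site and 1 list gene are not reported here. With 1 library per condition, no test between conditions was made.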

Additional observations from a re-analysis of the deposited data

Results flagged for a closer look

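The median level ratio of POU2AF1 at IRF4-free sites still called was below 1 in MM1.S, at 0.847 over 300 sites, and above 1 in NCI-H929, at 1.03 over 295 regions. The NCI-H929 quartiles were 0.823 and 1.24, and 46.1% of its regions (40.3 to 52.0) had a lower level with AU-15330, an interval that includes an even split. The same gap ran through the whole lists, with medians of 0.809 in MM1.S and 0.979 in NCI-H929. With 1 library per condition the difference between the lines was not tested.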

How the results depend on the processing

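No paired analysis was possible because each condition had 1 library. The selection held 604 sites when no IRF4 region was allowed within 1 kb and 399 when −log10 q of at least 5 was required in both POU2AF1 DMSO lists. The kept share in MM1.S was 48.6% at that stricter DMSO limit, 20.9% with it on the AU-15330 regions, 26.0% with 50% of the site covered, 28.7% with summits within 200 bases and 42.7% with equal numbers of the strongest regions in each list. In NCI-H929 these values were 46.4%, 22.8%, 25.7%, 27.9% and 43.7%, and 27.4% with no IRF4 within 1 kb. Under the corresponding settings (the stricter limit applied to each line's own DMSO list) the whole lists gave 48.3%, 23.5%, 25.4%, 27.5% and 51.7% in MM1.S and 55.7%, 31.0%, 31.2%, 32.0% and 57.2% in NCI-H929. The promoter share was 26.4% within 500 bases, 41.9% with the TSS of any gene and 16.6% with no IRF4 within 1 kb. The octamer core share was 12.1% within 50 bases of the summit, 19.98% over the whole region, 12.9% for the full octamer and 22.3% at the stricter limit. The CTCF share was 30.8% with 1 mismatch, an alternative chosen after seeing the data. Both median level ratios were unchanged, at 0.847 in MM1.S and 1.03 in NCI-H929, in the only alternative run for them. That alternative took the AU-15330 region with the nearest summit. The cause of the shifts in the shares above was not tested. Read depth per library is not given in the lists, so a lost call can be a lower level or a shallower library.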

Other observations

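The 5 octamer promoters given here, of 27 among the IRF4-free sites, were chosen after their values were seen. MEF2B, a transcription factor of germinal centre B cells, had levels of 12.9 with AU-15330 and 15.6 with DMSO in MM1.S, and of 18.6 with AU-15330 and 19.7 with DMSO in NCI-H929. NFIA, a nuclear factor I family member, had 17.5 with AU-15330 and 29.4 with DMSO in MM1.S, and 13.2 with AU-15330 and 12.0 with DMSO in NCI-H929. CSK, the kinase that restrains Src family kinases, had 12.4 with AU-15330 and 20.9 with DMSO in MM1.S, and 15.2 with AU-15330 and 10.3 with DMSO in NCI-H929. NFIA and CSK were thus lower in MM1.S and higher in NCI-H929. LGR4, a receptor of R-spondins, was lost in MM1.S, where its DMSO level was 16.9, and stood at 21.6 with AU-15330 and 15.0 with DMSO in NCI-H929. ERCC5, a nuclease of nucleotide excision repair, had 12.4 with AU-15330 and 22.3 with DMSO in MM1.S and was lost in NCI-H929, where its DMSO level was 5.99.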
